A study of Mus musculus with 2 samples.

Results

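The 10 genes described here are markers of Kupffer cells, the macrophages that live in the sinusoids of the liver: Marco, Cd5l, Clec4f, Adgre1, Csf1r, Vsig4, Timd4, C1qa, C1qb and C1qc. They were found as the array probes whose RefSeq accession belongs to one of these genes, which gave 13 of the 26762 probes that could be named, for all 10 genes out of 20284. All 13 probes were well above background in all 4 RNA pools by the scanner software's own call, so no member was lost to a filter on dim probes. Total liver RNA was measured, so fewer Kupffer cells and less RNA per Kupffer cell cannot be told apart in any result below.

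The RNA came from livers of CREBH KO mice, described in the labels as CREBH null, and of wild-type (WT) mice, both on the C57B6J strain and with food withdrawn for 24 h (fasted) or freely available (fed). Each of the 4 groups was 1 pool of liver RNA. Age, sex, the number of mice in a pool and the construction of the null allele are not given in the sources used here. Each feeding state was read on 1 two-colour Agilent array, with KO RNA labelled with Cy5 and WT RNA with Cy3, and both arrays lay on 1 slide read in 1 scan. There was no replicate and no dye swap, so nothing below has a test, and within 1 array genotype and dye cannot be told apart.

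Kupffer cells take up microbes, dead cells and complement-coated particles from portal blood. Csf1r is the receptor through which CSF1 and IL-34 keep macrophages alive, and Adgre1 encodes a classic surface marker of mouse macrophages. Marco is a scavenger receptor that binds bacteria, Timd4 a receptor for phosphatidylserine on dying cells, Vsig4 a receptor for fragments of complement C3, and Clec4f a C-type lectin used in the mouse as a marker of Kupffer cells. Cd5l encodes a secreted scavenger-type protein also called AIM, and C1qa, C1qb and C1qc encode the chains of C1q, which starts the classical complement pathway and is made largely by macrophages.

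Levels are background-corrected intensities brought to a common scale across the arrays, and differences are on the log2 scale. They are read within a probe, since the brightness of different probes is not comparable. Creb3l3, the gene that encodes CREBH, had 7925 units in KO against 33362 in WT liver after fasting, and 8873 in KO against 16354 in WT liver when fed, lower in KO both times. Its probe was not placed relative to the null allele here, which limits this as a check of the labels. Spots of one probe printed 10 times differed by a median SD of 0.08 (KO over WT, fasted, 258 probes) and 0.09 (fed, 235 probes), which holds no difference between mice or labelling reactions. All 10 listed hepatocyte markers were above background in the 4 pools.

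In fed liver the KO pool lay below the WT pool for all 10 Kupffer cell genes, where 46.9% of 11377 measured genes had a ratio below 0. Their median log2 KO over WT ratio was -0.36, against 0.01 for all measured genes. This direction turned over when the arrays were centred on all their gene spots in place of loess, where the members' median was 0.50 and that of all measured genes 0.78, and Clec4f alone turned (0.10) when centred on the measured genes. One member, Marco, was at least 1.5-fold lower, where 1.41% of measured genes were, and none was 2-fold lower, where 0.396% were. The scanner software's own log2 ratio was below 0 by more than its error for all 10 genes, as it was for 19.6% of measured genes. In fasted liver the same genes lay on both sides of 0, 6 above and 4 below, where 52.7% of 12262 measured genes were above, with a median of 0.14 against 0.01 for all genes. None was 1.5-fold apart after fasting, where 2.73% of genes were, and the scanner's ratio was further from 0 than its error for 3 members (Marco, Adgre1 and Timd4, all above 0), as for 36.0% of genes. With the arrays centred on the measured genes all 10 lay above 0 in fasted liver.

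**Figure D1:**
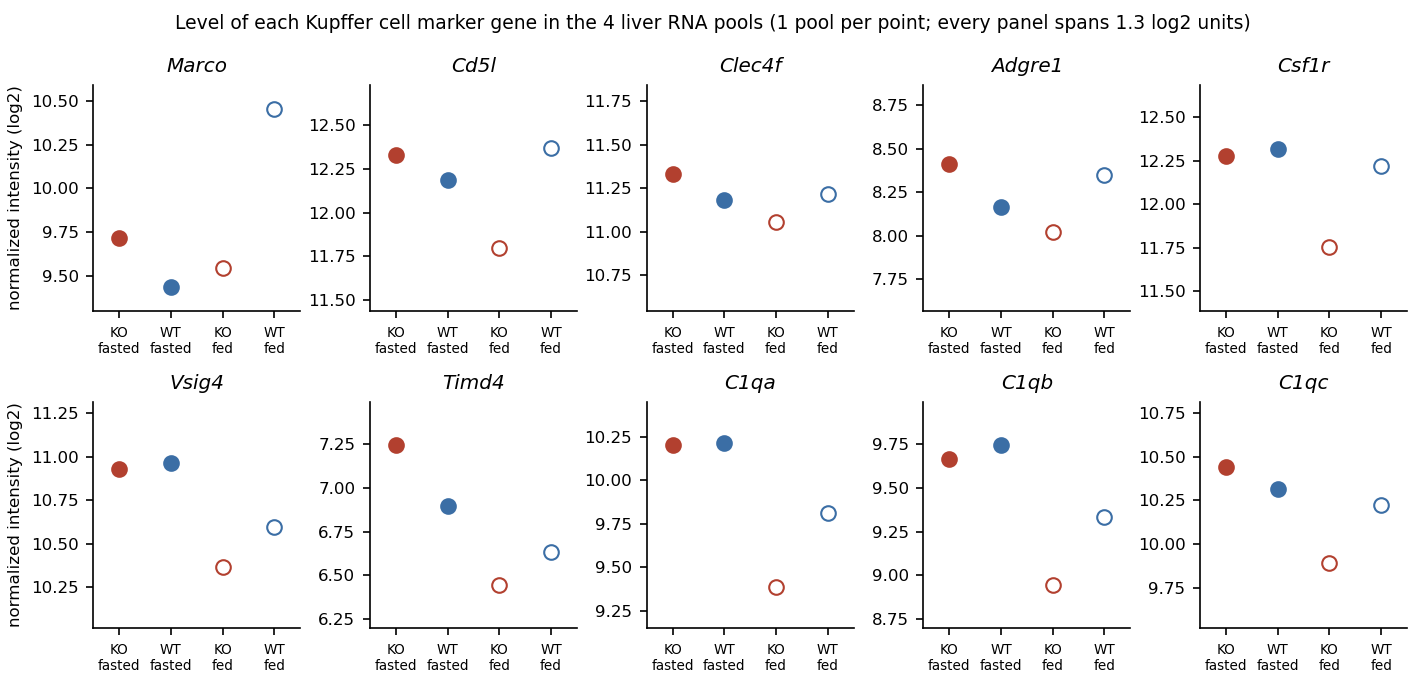
Normalized intensity (log2, vertical axis) of the 10 Kupffer cell marker genes in the KO and WT pools of fasted and fed liver, 1 point per pool and 1 panel per gene, all panels spanning the same number of log2 units. The fed KO pool is the lowest point in 9 of the 10 panels (in 1 with centring on all gene spots), and Marco differs in having a high fed WT pool.

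Seen over the 4 pools, the fed KO pool was the lowest for 9 of the 10 genes, against 25.8% of the 11290 genes measured in all pools. The exception was Marco, lowest in the fasted WT pool. With centring on all gene spots the fed KO pool was the lowest for 1 member, where it was for 1.31% of genes, and with centring on measured genes for 8 members (30.8%). The gap between the fed KO pool and the next lowest pool was widest for Csf1r (0.47), C1qa (0.42), C1qb (0.39) and Cd5l (0.39) and narrowest for Clec4f (0.13). The highest pool was a fasted one for 8 genes, where it was for 52.0% of all genes, and the fed WT pool for Marco and Cd5l. These genes mark 1 cell type in the same 4 RNA pools, so their shared order is not repeated evidence.

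Among the receptors for microbes and dead cells, Marco had the widest genotype difference. It read 842 units in KO and 693 in WT liver after fasting, against 748 in KO and 1405 in WT liver when fed. The fed WT pool stood alone, and the other 3 pools were close together. The log2 KO over WT ratio was 0.28 in fasted liver and -0.91 in fed liver, the second being 1.88-fold lower in KO, with scanner errors of 0.207 and 0.225. Its fed ratio stood at percentile 0.448 of the measured genes.

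Timd4 was the dimmest member, at 223 and 107 raw units in the fasted and fed KO pools over local backgrounds of 72. Its normalized level was 152 in KO and 119 in WT liver after fasting, and 87.0 in KO and 99.1 in WT liver when fed. Both fasted pools exceeded both fed pools. The log2 KO over WT ratio was 0.35 in fasted liver and -0.19 in fed liver, and the scanner-processed signals, which carry no offset for dim spots, gave 0.58 and -0.69 with errors of 0.22 and 0.31.

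Cd5l, the secreted scavenger protein, had 5148 units in KO and 4653 in WT liver after fasting. When fed it had 3562 in KO and 5296 in WT liver, and this KO pool alone was low. The ratios were 0.15 fasted and -0.57 fed, the fed one 1.49-fold lower in KO, at scanner errors of 0.20 and 0.21.

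Vsig4, the complement receptor, had 1947 units in KO and 1993 in WT liver after fasting, against 1322 in KO and 1551 in WT liver when fed. Its ratios of -0.03 fasted and -0.23 fed were among the smallest of the members. Here the feeding states were further apart than the genotypes.

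Csf1r, on whose signal macrophages depend, had 4958 units in KO and 5112 in WT liver after fasting, and 3456 in KO and 4770 in WT liver when fed. The fed KO pool was low, and the other 3 pools lay within 0.10 on the log2 scale of one another. The ratio was -0.04 fasted and -0.47 fed. Its 3 probes did not read alike in fed liver: the bright probe gave -0.47, while the dimmer ones gave -0.33 and 0.05.

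Adgre1 had 340.3 units in KO and 287 in WT liver after fasting, against 260.2 in KO and 325 in WT liver when fed. The order of genotypes thus differed between the feeding states. Its ratios were 0.24 fasted and -0.32 fed by the brighter of its 2 probes. By the other probe they were -0.08 and -0.37, so the fasted direction depended on the probe.

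Clec4f had the smallest fed difference of the 10. It read 2580.0 units in KO and 2325 in WT liver after fasting, and 2132 in KO and 2380.4 in WT liver when fed. All 4 pools lay within 0.28 on the log2 scale, with ratios of 0.15 fasted and -0.16 fed, both smaller than the scanner errors of 0.205, although the scanner's own fed ratio of -0.24 was not.

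The C1q chains had similar ratios. C1qa had 1175 units in KO and 1187 in WT liver after fasting, and 669 in KO and 897 in WT liver when fed, so that KO lay near WT after fasting and below it when fed. C1qb showed the same order, with 812 in KO and 859 in WT liver after fasting and 492 in KO and 645 in WT liver when fed. C1qc had 1392 in KO and 1277 in WT liver after fasting, and 949 in KO and 1198 in WT liver when fed. The fed ratios of the chains were -0.42 for C1qa, -0.39 for C1qb and -0.34 for C1qc, and the fasted ones -0.01, -0.08 and 0.13.

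The probe of C1qc was printed 10 times, so its ratio can be set against the spread between spots. On the fasted array its 8 usable spots averaged 0.13 ± 0.05 (SD between spots) and ran between 0.05 and 0.21. On the fed array 9 usable spots averaged -0.34 ± 0.06 and ran between -0.42 and -0.24. The spots of the feeding states did not overlap. Within each of 8 spot positions usable on both arrays the fasted minus fed difference lay between 0.36 and 0.53. This is the technical precision of 1 hybridisation per state and says nothing of variation between mice.

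C1qb, C1qc and C1qa are next to each other on chromosome 4, in that order and with no other gene between them in the RefSeq gene table. Promoter sequence is shown for C1qb and C1qc, the neighbours that RefSeq's promoter table (GRCm38.p6) holds, and for Cd5l and Marco, the members with the lowest fed ratios. Each run is the 250 bases before the transcription start, 5′ to 3′ on the gene's own strand. Capitals mark GAGGAA, a purine-rich box of the kind bound by PU.1, the master factor of macrophages, and TGCTGA, a half-site of the MAF factors, on either strand.
C1qb, chr4:136886201-136886450, minus strand: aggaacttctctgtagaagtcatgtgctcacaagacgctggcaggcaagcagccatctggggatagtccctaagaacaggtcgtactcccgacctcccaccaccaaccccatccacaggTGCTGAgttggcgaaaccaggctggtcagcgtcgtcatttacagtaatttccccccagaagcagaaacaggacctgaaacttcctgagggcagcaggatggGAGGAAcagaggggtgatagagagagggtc
C1qc, chr4:136892915-136893164, minus strand: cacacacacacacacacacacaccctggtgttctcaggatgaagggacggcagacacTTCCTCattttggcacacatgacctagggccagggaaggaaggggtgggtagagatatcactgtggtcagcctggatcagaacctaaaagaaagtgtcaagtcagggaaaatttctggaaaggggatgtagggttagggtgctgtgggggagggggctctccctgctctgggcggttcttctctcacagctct
Cd5l, chr3:87357631-87357880, plus strand: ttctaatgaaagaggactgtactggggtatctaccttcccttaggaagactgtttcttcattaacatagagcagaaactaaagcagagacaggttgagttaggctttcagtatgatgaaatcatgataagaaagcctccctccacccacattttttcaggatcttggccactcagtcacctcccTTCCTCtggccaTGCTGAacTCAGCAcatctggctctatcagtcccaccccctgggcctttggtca
Marco, chr1:120505025-120505274, minus strand: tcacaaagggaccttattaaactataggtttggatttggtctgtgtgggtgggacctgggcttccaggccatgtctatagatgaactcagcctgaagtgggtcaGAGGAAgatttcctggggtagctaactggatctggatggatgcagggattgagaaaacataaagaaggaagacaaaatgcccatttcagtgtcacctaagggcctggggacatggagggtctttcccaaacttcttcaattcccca

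Promoter windows were searched for 7 members, and not for Adgre1, Csf1r and C1qa. Of the 7 members searched, 5 held GAGGAA, which 23.3% of all 32851 promoter windows of that length held. TGCTGA was in 4 of 7 and in 16.1% of all windows. In Cd5l it occurred on both strands, starting 54 and 46 bases before the start. TGACGT, the core of the cAMP response element to which factors of the CREB family bind, was in none of the 7 windows and in 6.47% of all. No 2 matches overlapped. These matches are letters in a window and not shown sites.

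**Figure D2:**
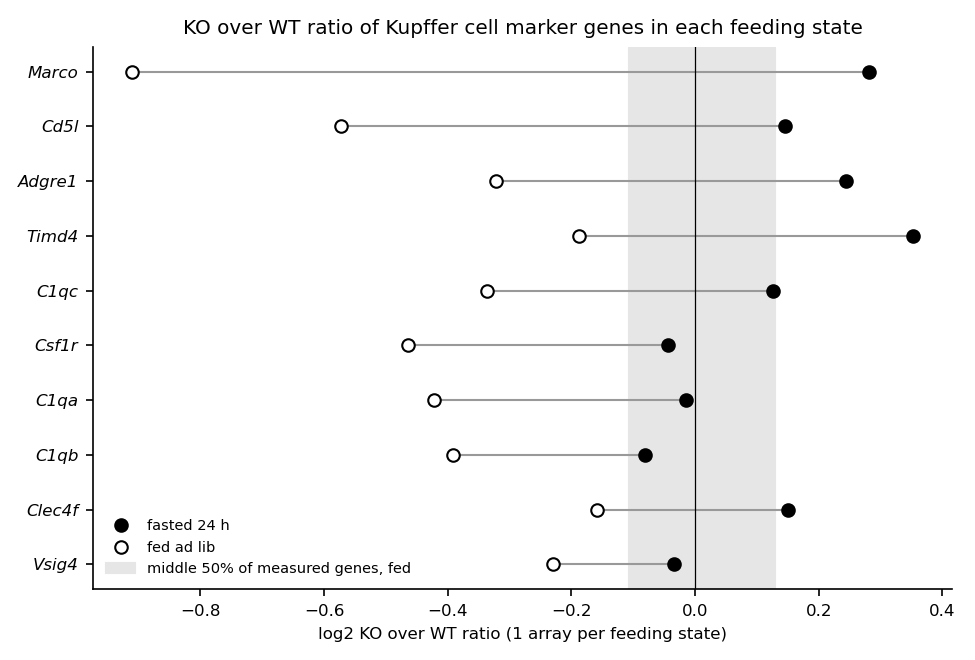
Log2 KO over WT ratio (horizontal axis) of each Kupffer cell marker gene on the fasted array (filled) and the fed array (open), with the range between the quartiles of all measured genes on the fed array shaded. All open points lie left of 0 and left of the shaded range, and the lines for Marco and Cd5l are the longest. With centring on all gene spots the members' fed median would be 0.50 and that of all measured genes 0.78.

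Setting the KO over WT ratio of fasted liver against that of fed liver removes any dye effect of a probe that is the same on both arrays. The fasted minus fed difference was above 0 for all 10 members, where it was for 48.8% of 11290 genes, with a median of 0.44 against -0.01 for all genes. Marco had the largest difference (1.19, 2.29-fold), past 2-fold as were 0.771% of genes upward, and Cd5l followed (0.72). These were the 2 members at least 1.5-fold higher, where 2.25% of genes were. Adgre1 (0.57), Timd4 (0.54), C1qc (0.46), Csf1r (0.42) and C1qa (0.41) came next, then C1qb and Clec4f (0.31 each), and Vsig4 was nearest 0 (0.20). With each array centred on all its spots, Vsig4 was at -0.03 and the median at 0.23, with all genes at -0.17.

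**Figure D3:**
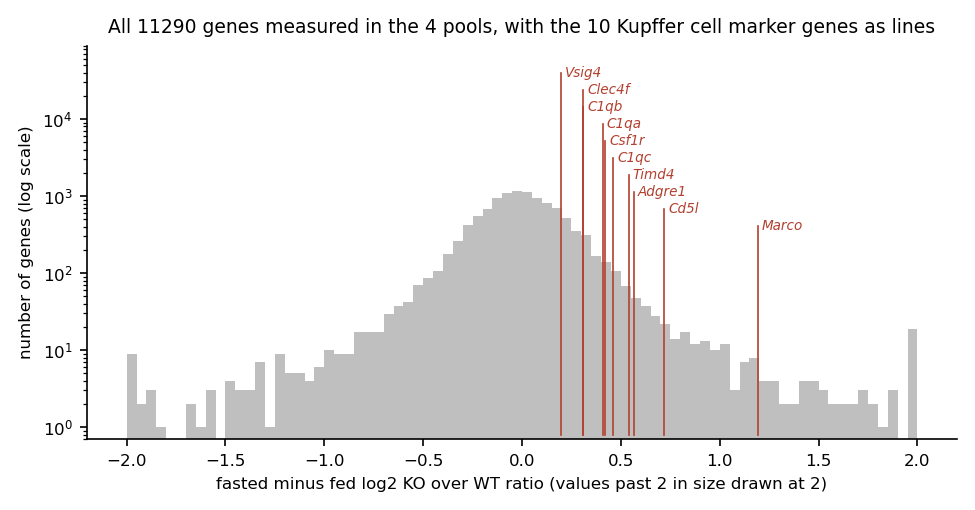
Number of genes (log scale, vertical axis) by the fasted minus fed difference of the log2 KO over WT ratio, for all 11290 genes measured in the 4 pools, with differences past 2 in size drawn at 2. The lines mark the 10 Kupffer cell marker genes, which all lie above 0, between 0.20 for Vsig4 and 1.19 for Marco. With centring on all spots Vsig4 would lie at -0.03 and the median of all genes at -0.17.

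Fasting against feeding gave the same data from the other side, and these comparisons share their pools with the ones above. In KO liver all 10 genes were higher after fasting, where 51.7% of 11785 genes were, with a median of 0.54. C1qa (0.81), Timd4 (0.80) and C1qb (0.72) were at least 1.5-fold higher, where 7.16% of genes were. In WT liver 6 of 10 were higher, where 51.4% of 11441 genes were, and the median was 0.10. Marco was 2.03-fold lower in fasted WT liver (-1.02), the only member at least 1.5-fold apart in WT, where 5.66% of genes were that much lower and 1.92% were 2-fold lower. C1qb (0.41), C1qa (0.40) and Vsig4 (0.36) were the highest in WT. These values cross arrays, and without normalization between arrays the medians were 1.12 in KO and 0.62 in WT, with all genes at 0.44 and 0.46. Marco was then at -0.44 in WT, no longer 1.5-fold apart, and 6 other members were at least 1.5-fold higher, as were 36.9% of genes.

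Other genes of tissue macrophages lay in the same directions in most cases. Of 29 genes listed 28 were on the array and 26 measured, and their median ratio was 0.11 in fasted and -0.24 in fed liver. In fasted liver 23 of the 26 lay above 0, where 52.7% of all measured genes did. In fed liver 22 lay below, where 46.9% did. In fed KO liver 4 were at least 1.5-fold lower, where 1.41% of all measured genes were. They included Hpgd, a prostaglandin-degrading enzyme (0.18 fasted, -0.75 fed), and Il18bp, which binds IL-18 (0.46 and -0.68). The others were Tyrobp, the signalling adaptor of myeloid receptors (0.07 and -0.65), and Fcgr4, an IgG receptor (0.27 and -0.65). The haem oxygenase gene Hmox1, by contrast, was above 0 both times (0.45 and 0.31), and the iron exporter gene Slc40a1 was near 0 (-0.03 and -0.12). Summed over the 10 members, the level after fasting was 19347 in KO and 18504 in WT liver. When fed it was 13677 in KO and 18567 in WT liver. In this sum, where the bright probes of Cd5l and Csf1r weigh most, the fed KO pool alone was low. By gene this did not always hold. For Vsig4, Timd4, C1qa and C1qb both fed pools lay below both fasted pools, and Marco was lowest in the fasted WT pool. Csf1r and C1qc also had both fed pools lowest. Their fed and fasted WT pools were only 0.10 and 0.09 apart on the log2 scale.

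Factors that set macrophage identity gave no common direction, with a median of -0.01 in fasted and -0.08 in fed liver over 12 measured of 13. Id3, needed for Kupffer cell formation in mice, was at -0.04 fasted and -1.04 fed, close to the pattern of Marco. Spic, a factor of iron-recycling macrophages, was at -0.08 and -0.53. Spi1, which encodes PU.1, was not well above background in any pool. The ligands of Csf1r were little apart: Csf1 was at 0.02 fasted and -0.30 fed, and Il34 at 0.31 and -0.17.

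The complement proteins that act with C1q and come mainly from hepatocytes gave smaller differences between states. Over 14 measured genes the median was -0.03 in fasted and -0.07 in fed liver, and the fasted minus fed differences lay between -0.13 and 0.23. C3 was at 0.33 and 0.13, and Serping1, the C1 inhibitor gene, at -0.36 in both states. Hepatocyte markers had medians of 0.01 fasted and -0.06 fed, but single genes differed more. In fed liver 5 of 10 lay below 0, where 46.9% of all measured genes did. The lowest were Apoa1 (-0.99 fasted, -0.58 fed) and Alb (0.18 and -0.37).

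Genes of MHC class II, which Kupffer cells share with dendritic cells and B cells, were lower in the fed KO pool by more than the members. Their median was 0.42 in fasted liver (7 measured) and -1.48 in fed liver (6 measured). In fed liver 5 were at least 2-fold lower, where 0.396% of all measured genes were. Cd74 was at 0.42 fasted and -1.58 fed, and H2-Ab1 at 0.62 and -1.48. Their summed level after fasting was 7468 in KO and 5249 in WT liver. When fed it was 5056 in KO and 14133 in WT liver. In this sum, where bright probes weigh most, the fed WT pool stood apart as it did for Marco. For H2-Aa and H2-DMa it was instead the fed KO pool that lay furthest from the others. The log2 levels of H2-DMa were 7.60 in KO and 7.25 in WT fasted, and 6.88 in KO and 7.49 in WT fed. The part of the MHC class II genes in the members' result was not tested.

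By list median, markers of other liver cells were nearer 0 than the members in fed liver, but not all in fasted liver. For the counts that follow, 46.9% of all measured genes lay below 0 in fed liver. Stellate cell markers had medians of 0.16 in fasted (9 measured) and 0.17 in fed liver (8 measured), and 1 of 8 lay below 0 when fed. Blood markers (5 measured) were at -0.05 fasted and 0.25 fed. Sinusoidal endothelial markers, all 13 measured, had medians of 0.08 in fasted and -0.14 in fed liver, and 11 of 13 lay below 0 when fed. They were higher after fasting by a median of 0.52 in KO and 0.37 in WT liver. Monocyte and infiltrating macrophage markers were at 0.12 fasted (10 measured) and 0.16 fed (8 measured). When fed 5 of the 8 lay above 0, among them Trem2 (0.20 fasted, 0.43 fed) and Spp1 (0.27 and 0.33). The 3 below included Ly6c1 (0.05 fasted, -0.69 fed) and Plac8 (0.14 and -0.47). Lymphocyte markers were at 0.10 and -0.17 over 7 of 14, and the other 7, Cd79a and Ms4a1 among them, were not well above background in any pool. Neutrophil markers were at -0.01 (6 measured) and 0.05 (5 measured), and dendritic cell markers at 0.05 (5 measured) and -0.03 (4 measured). When fed 3 of the 5 neutrophil markers lay above 0, among them Camp (0.15 fasted, 0.30 fed) and Csf3r (-0.01 and 0.16). The other 2 lay below, S100a9 (-0.01 fasted, -0.61 fed) and S100a8 (0.46 and -0.47). Whether the share of any of these cells differed between the pools was not tested.

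**Figure D4:**
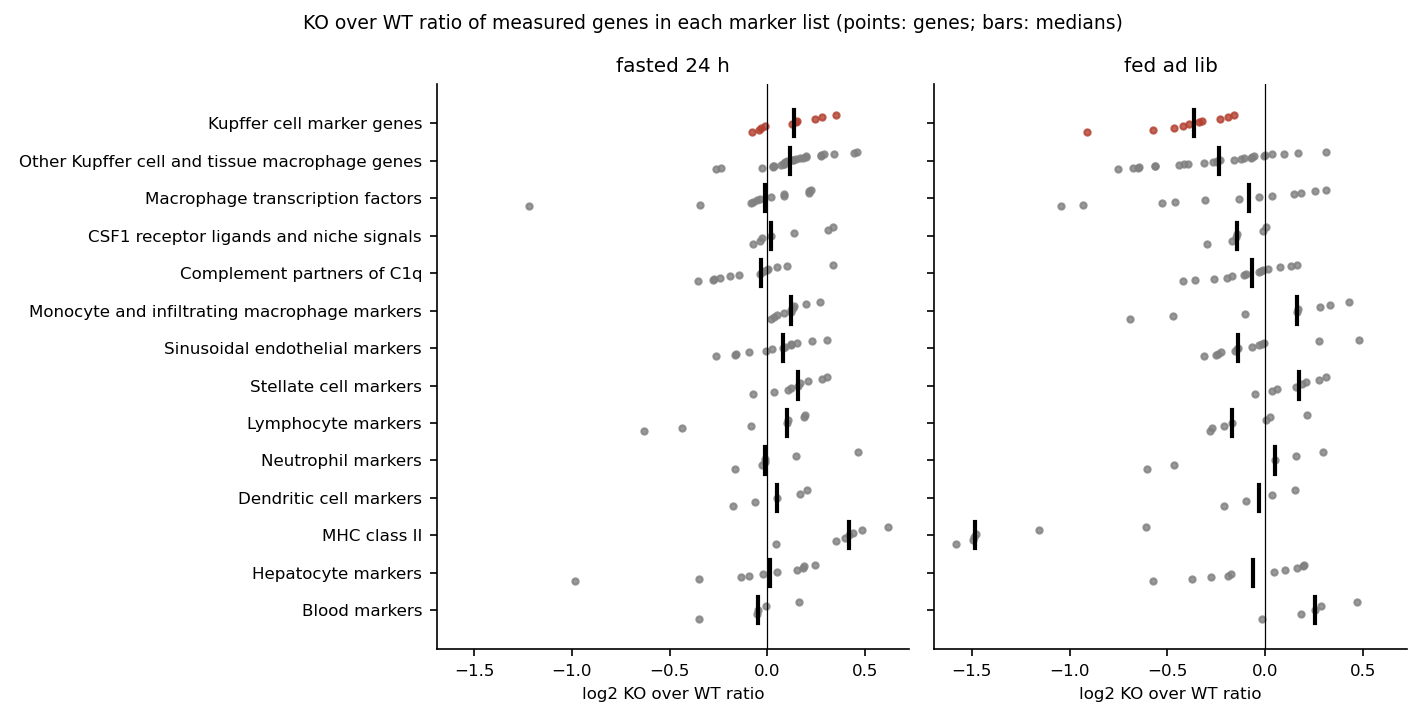
Log2 KO over WT ratio (horizontal axis) of every measured gene in each marker list, on the fasted array (left) and the fed array (right), with a bar at each list's median. The Kupffer cell marker genes centre on 0.14 fasted and -0.36 fed, and MHC class II genes lie furthest from 0 in fed liver (-1.48). Centring on all spots would put the fed median of the Kupffer cell genes at 0.50 and that of all measured genes at 0.78.

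The genes most like the members over the 4 pools were found by the Euclidean distance between profiles, each a gene's log2 levels minus their mean. Nearest to the members' median profile among 11280 other genes were Mplkip, Bcat2, 2610008E11Rik, Fau and Zc3h12d, at distances of 0.06 to 0.08. That profile spans only 0.55, and over 4 points a match at this distance carries little weight. Marco had the widest profile (1.02), and the 5 genes nearest to it were Gbp4, Irf1, Gm12250, Prxl2a and Ly6c1, at 0.17 to 0.24. Gbp4, a guanylate-binding protein gene, was at 0.38 fasted and -1.03 fed, and Irf1, a factor of the interferon response, at 0.09 and -0.71. No other member was near Marco by this measure: Cd5l, the closest, ranked 824 of 11289 at 0.65.

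**Figure D5:**
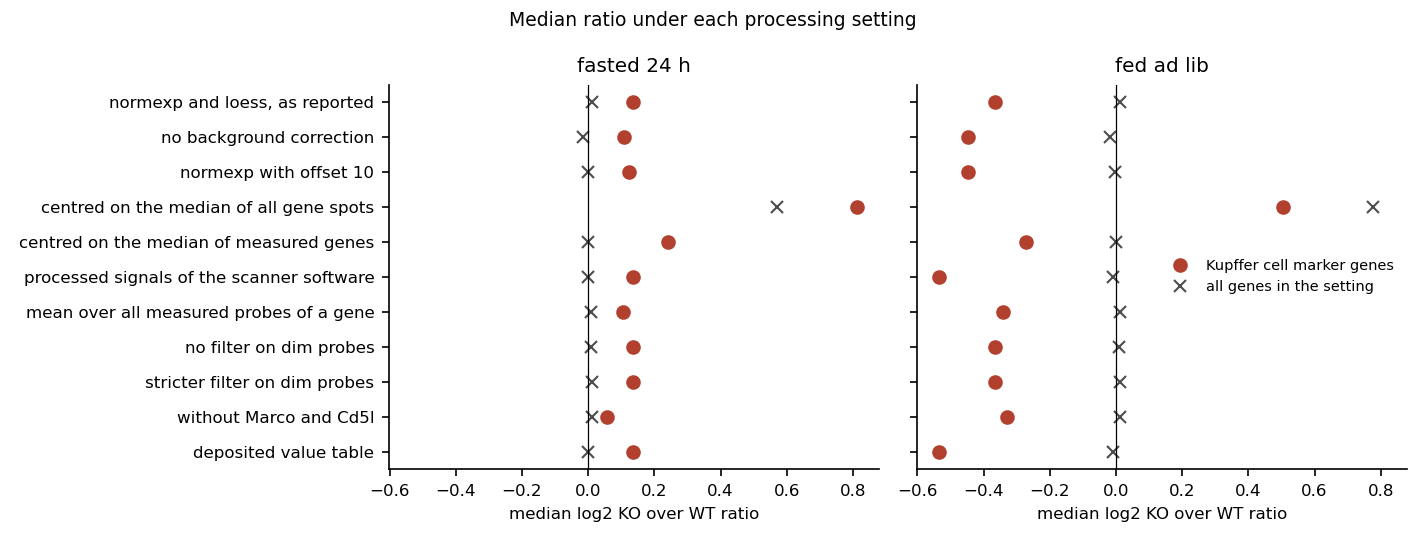
Median log2 KO over WT ratio (horizontal axis) of the Kupffer cell marker genes (filled points) and of all genes (crosses) under each processing setting, on the fasted array (left) and the fed array (right). On the fed array the filled point lies left of the cross in every setting, including centring on all spots, where both lie above 0 (0.50 and 0.78).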

How the data were processed

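The arrays were read by the authors with Agilent Feature Extraction 10.10.1.1, per the file headers. Deposited intensity of spots and of their local background is a pixel median and carries no normalization. Processed intensity, also deposited, is background-subtracted, detrended and dye-normalized. Its log10 ratio, as deposited, is Cy5 over Cy3, here KO over WT. A deposited table of log2 ratios matched it within 0.005, with a median of 0 on both arrays, so its scale and direction are settled. The scanner software's error of a ratio is for 1 spot.

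Medians were corrected with normexp (offset 50), normalized by loess within and Aquantile between arrays, in limma 3.58.1 under R 4.3.3. These steps were also run on simulated arrays with constant background and a straight-line dye effect. Such arrays cannot show which centring suits the real ones. The offset draws ratios of dim probes towards 0. Of 55681 probes 26762 were named through unversioned RefSeq accessions (GRCm38.p6, names only, since the array grid names mm9), and 28919 were not. Control spots (3671 per array) and outlier spots (197 fasted, 216 fed) were left out. A gene's brightest probe was used. Measured means well above background in at least 50% of spots in each channel compared. With 1 pool per group there was no test, and 1.5-fold and 2-fold were the sizes counted. The number of arrays limits the precision. Named were the members, at most 4 genes per list (those furthest from 0) and the 5 nearest profiles. Hmox1, Slc40a1, Tyrobp, H2-DMa and markers below background were added after their values were seen. Members and lists were chosen with earlier results of these data known. Alternatives covered background, normalization, signal, probe, filter and member choice.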

Additional observations from a re-analysis of the deposited data

Results flagged for a closer look

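For 6 of the 10 genes the KO over WT ratio lay on opposite sides of 0 in the feeding states, on each side by more than the spread between spots of a probe. Each state had 1 array, so the difference was not tested. The scanner's error is wider than the spread between spots. In fasted liver the scanner's own ratios of Cd5l (0.18), Clec4f (0.16) and C1qc (0.11) were within their errors of 0.20. The fasted minus fed log2 difference was 1.19 for Marco, 0.72 for Cd5l, 0.57 for Adgre1, 0.54 for Timd4, 0.46 for C1qc and 0.31 for Clec4f. For Adgre1 the other probe had ratios of -0.08 fasted and -0.37 fed, on the same side of 0. With centring on all gene spots the ratios of 5 of the 6 genes were above 0 in both states (Marco 0.97 fasted and 0.037 fed, Cd5l 0.99 and 0.52, Adgre1 0.82 and 0.38, C1qc 0.86 and 0.62, Clec4f 0.94 and 0.87), and Timd4 stayed on opposite sides (0.70 and -0.01). Centring on all gene spots also put the median of all measured genes at 0.57 fasted and 0.78 fed. With centring on measured genes Clec4f was above 0 in both states (0.37 and 0.10). No group had the 4 samples needed to look for outlying samples.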

How the results depend on the processing

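Values are log2 medians of the 10 members or counts of members at least 1.5-fold apart, with the percentage of all genes that far apart in the same direction. In fed liver (KO over WT, reported as -0.36 and 1) centring on all spots reversed the median to 0.50 with 4 genes higher (66.0% of all genes), and Marco to 0.037. Centring on measured genes gave -0.27 and 2 genes (9.58%), processed signals and the deposited value table -0.54 and 4 each (4.16%), and no background correction (1.81%) or an offset of 10 (2.27%) gave 2 genes each. In fasted liver (0.14 and 0) centring on all spots gave 0.81 and 10 genes higher (48.0%), centring on measured genes 0.24, and leaving out Marco and Cd5l 0.055. Fasted over fed in KO (0.54 and 3) became 0.43 with centring on all spots, 1.12 and 10 genes higher (36.5%) without normalization between arrays, and 5 genes (12.8%) with processed signals. In WT (0.10 and 1) it became 0.19 with centring on all spots, 0.62 and 6 genes higher (36.9%) without normalization between arrays, where Marco (-0.44) was not among them, and 0.18 without Marco and Cd5l. The fasted minus fed difference (0.44 and 2) became 0.23 with centring on all spots, 0.55 and 5 genes with processed signals (6.10%) or the deposited value table (6.11%), and 4 genes with centring on measured genes (3.92%), no background correction (2.95%) or an offset of 10 (3.98%). Without Marco and Cd5l the count was 0 in fed liver, in WT and for the difference, since these genes made it. Centring on all spots also moved all genes (to 0.57 fasted and 0.78 fed), and the causes of the other shifts were not tested. For single members 309 of 450 values moved by less than the spread between spots. Many of the 450 could not move at all. These were the 50 values without and the 50 with a stricter filter on dim probes, since all 13 probes were above background. The 8 genes with 1 probe could not move when probes were averaged. The sign changed in 23 of the 450, of which 15 were with centring on all spots, 5 with centring on measured genes and 3 without normalization between arrays. Of these, only Marco in fed liver was 1.5-fold apart as reported. No paired analysis was possible because each group is 1 pool with no replicates. A slide block could not be fitted, since both arrays lay on 1 slide. Timd4, whose signal was 1.49 times its background in the fed KO pool, is the member that dimness limits most.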

Other observations

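Several genes used to tell macrophages apart gave no reading in these livers. Cd163, a haemoglobin receptor of tissue macrophages, was not well above background in any pool, nor were Ccr2, F13a1 and Gpnmb, which mark monocytes and recruited macrophages. Mrc1, the mannose receptor that sinusoidal endothelium also carries, was higher after fasting in both genotypes (0.93 in KO and 0.72 in WT on the log2 scale), with KO over WT ratios of 0.15 fasted and -0.07 fed. Ctss, a lysosomal protease gene, was 1.04 higher after fasting in KO and 0.45 in WT. S100a8, a neutrophil and monocyte gene, had ratios of 0.46 fasted and -0.47 fed. These genes were chosen after their values were seen.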
